A study of Arabidopsis thaliana with 119 samples.

Results

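Bur-0 and Col-0 are natural inbred accessions of Arabidopsis thaliana, Bur-0 from Ireland and Col-0 the accession on which the reference genome was built. Their rosette leaves were compared under W+N+, the treatment in which both water and nitrate were well supplied. The libraries were chosen by their names, which give the accession and the treatment: 5 of Bur-0 and 6 of Col-0, 11 of the 119 RNA-seq libraries in the series. All 20025 genes that passed a filter on low counts were tested, of 32833 in the count table. The plants had been raised in short days, moved to the Phenoscope watering robot for 23 days and harvested 31 days after sowing. Under W+N+ a pot received 160.45 ± 7.96 ml of a solution holding 5 mM nitrate. The same accessions were also sampled, 6 libraries each, in 3 poorer treatments, which are used at the end: W-N+ (50.85 ± 4.67 ml, 5 mM), W+N- (161.93 ± 11.07 ml, 0.5 mM) and W-N- (50.70 ± 4.10 ml, 1.5 mM). Each library also carries an experiment code. Under W+N+ the code P3ID33 marks 3 Bur-0 and 3 Col-0 libraries, and P3ID34 marks 2 Bur-0 and 3 Col-0 libraries, and the code was a term in the fit of all values given below unless stated otherwise.

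The limits of the contrast follow from the material. Each accession is a single inbred genotype with no introduced allele in the labels, so a difference belongs to the whole genotype and to no particular locus. Reads of both accessions were counted on one set of gene models. A gene that is missing from Bur-0, altered in sequence there or simply not expressed gives the same low count, and these cases cannot be told apart here. In whole leaves, fewer cells of a type and less RNA per cell cannot be told apart either. The strand setting of the counting is not given in the sources used here. Of the 173 genes given with values below, 34 overlap another annotated gene, so reads of the overlap may have come from either: FLC, FRI, FKF1, RPP5, RPP8, RPP13, RPM1, RLP47, CSD1, PHR1, PAP17, APR1, APR2, APR3, APS4, BCAT4, CLC-B, G6PD3, G6PD4, GDH3, HSP101, HUA2, NDB1, P5CS1, PAI2, TT4, CAB1, UGT74F2, AT1G03940, AT1G23950, AT1G66100, AT2G03965, AT2G11225 and AT4G20350. A near copy shares a long stretch with 17 of the 173, which makes their counts uncertain; NSP1, SNC4, PCC1, LDOX and AT1G23950 are among them, and for the rest the copy is named where the gene is described. The labels do not say whether replicate libraries came from separate plants, so the p-values measure the spread between libraries, which may be partly technical.

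Accessions of Arabidopsis are known to differ in a few well studied systems that serve as landmarks in such a comparison. Glucosinolates are sulfur-rich defence compounds of the mustard family. When a leaf is crushed, the myrosinases (the thioglucosidases TGG1 and TGG2) remove their glucose, and specifier proteins decide whether nitriles, epithionitriles or isothiocyanates form. Receptors of the nucleotide-binding leucine-rich repeat (NLR) class recognise pathogen effectors and stand in clusters of near copies that differ widely between accessions. Flowering in winter-annual types is held back by the MADS-box repressor FLC, and the circadian clock runs as loops in which the morning factors LHY and CCA1 and the later PRR and TOC1 genes repress each other in turn.

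The 5 Bur-0 libraries held 17622236 to 55325148 counts and the 6 Col-0 libraries 11429105 to 57889125. No pair of libraries in a group differed by as little as sampling noise alone. Col-0 replicate f stood apart from the rest. Its log2 levels deviated from its group mean by a root mean square of 0.738, against 0.279 to 0.411 in the other 10 libraries. Its TMM factor was 0.681, against 0.848 to 1.023, and its levels rose least with transcript length. Results that lean on this library are given with and without it. In the W+N- group, Col-0 replicate d held 0.312 to 4.60 CPM (counts scaled to a common library size, with TMM factors) of 13 genes that were under 0.1 CPM in every other Col-0 library and clearly expressed in another accession, so interaction results that lean on it are also given without it. In the W-N- group, Bur-0 replicate c likewise held 0.306 to 0.535 CPM of 5 genes under 0.1 CPM in every other Bur-0 library. No fit was run without it. The leaf label held: the 4 leaf markers RBCS1A, CAB1, LHCB2.1 and RCA summed to 50495 to 76720 CPM in Bur-0 and 50372 to 161367 CPM in Col-0. The 6 root markers summed to at most 28.7 CPM, the 6 flower markers to at most 2.75 CPM and the 5 seed markers to at most 0.145 CPM in any of the 11 libraries.

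The accession contrast was broad. By edgeR's quasi-likelihood test with Benjamini-Hochberg adjustment, which gives every adjusted p below, 7363 of the 20025 genes (36.8%) differed at an adjusted p under 0.05. Bur-0 was higher for 3265 (16.3%) and lower for 4098 (20.5%). A difference of at least 2-fold was seen in 2356 genes (11.8%), 928 higher (4.63%) and 1428 lower (7.13%). Of those 2356, 132 had no count in any Bur-0 library and 84 none in any Col-0 library, and for these the fitted size depends on the prior count. The library values of the groups did not overlap for 3381 genes (16.9%). Without Col-0 replicate f, 6379 genes were called (31.8%), 2896 higher (14.5%) and 3483 lower (17.4%). Within the codes, 8377 genes were called in P3ID33 and 3728 in P3ID34. Of the 149 called genes given with values below, 5 lost their call within P3ID33 and 18 within P3ID34, and none turned direction. For the 10 highest and 10 lowest differences among well expressed genes this direction was fixed in advance. They were chosen among genes without overlap and with the same direction in both codes. Short transcripts sat lower in Bur-0 than long ones: the median log2 difference ran from -0.20 in the shortest of 5 equal bins of genes to 0.13 in the longest, and from -0.07 to 0.08 without Col-0 replicate f. These percentages are the background against which the counts in gene lists below are to be read.

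**Figure D1:**
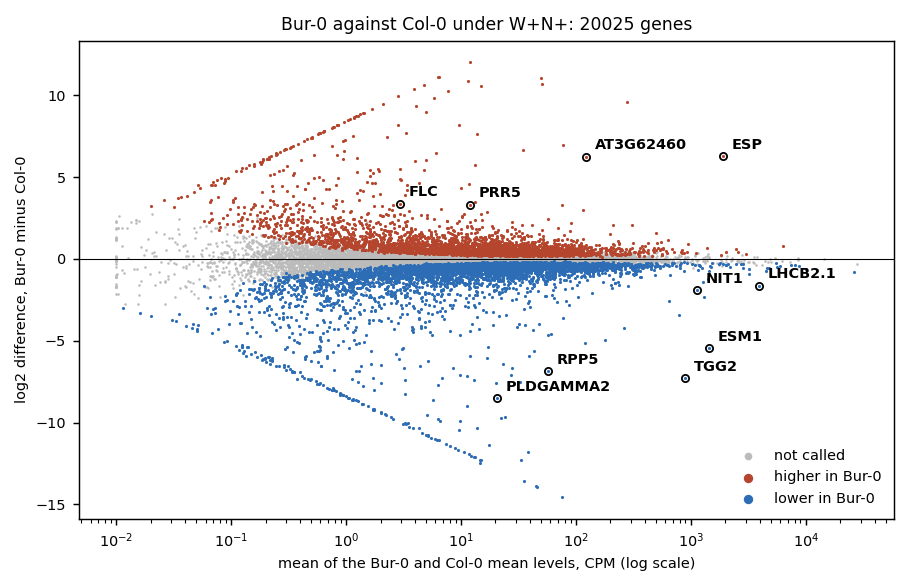
Each point is 1 of the 20025 genes tested. The horizontal axis gives the mean CPM of the Bur-0 and Col-0 means under W+N+ on a log scale, and the vertical axis the log2 difference, Bur-0 minus Col-0, with called genes coloured and 10 genes labelled. Called genes lie on both sides (3265 higher, 4098 lower in Bur-0), and ESP (6.28), TGG2 (-7.27) and ESM1 (-5.47) stand far from 0 at high levels.

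Several of the largest differences among well expressed genes fell in the glucosinolate hydrolysis system. ESP, the epithiospecifier protein that diverts hydrolysis products from isothiocyanates to epithionitriles and nitriles, was at 3490, 3592, 3742, 4420 and 3609 CPM in Bur-0 replicates a, c, d, e and f and at 34 to 65.2 CPM in Col-0 (median 46.1). It was thus 77.6-fold higher in Bur-0, a log2 difference of 6.28 ± 0.25 (SE; adjusted p = 1.84e-43). All 5 Bur-0 libraries, listed in this order throughout with the P3ID34 libraries a and c first, lay above all 6 Col-0 libraries. Part of the ESP transcript is shared with AT3G29634, so a portion of its reads could belong to that copy. ESM1, known in Arabidopsis as a modifier that favours isothiocyanates, ran the other way, at 72.1, 95.4, 51.8, 49.3 and 48.3 CPM in Bur-0 against 2233 to 3119 CPM in Col-0 (median 2871). Its log2 difference was -5.47 ± 0.18 (adjusted p = 7.13e-50), again with no overlap.

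The 2 main myrosinases of the leaf parted. TGG2 was at 11.3, 12.3, 10.7, 10.6 and 11.4 CPM in Bur-0 and 945 to 2231 CPM in Col-0 (median 1940), 155-fold lower (log2 difference -7.27 ± 0.24, adjusted p = 1.29e-49). TGG1, its partner, was at 3645, 4237, 3446, 4081 and 4228 CPM in Bur-0 and 1870 to 4583 CPM in Col-0 (median 3975), and the test found no difference (0.12 ± 0.17, adjusted p = 0.615). So the Bur-0 leaves had TGG1 counts in the Col-0 range and hardly any counted on the TGG2 model. The nitrile specifier proteins also parted. NSP3 was at 8.56, 3.6, 6.07, 4.72 and 7.65 CPM in Bur-0 and 0.104 to 0.685 CPM in Col-0 (median 0.405), higher by 3.90 ± 0.30 on the log2 scale (adjusted p = 3.35e-21), while NSP1 and NSP5 were lower, with log2 differences of -1.54 ± 0.20 and -0.70 ± 0.11 (adjusted p = 1.85e-10 and 7.58e-08). None of these 3 overlapped between the accessions.

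A nitrilase and an atypical myrosinase also differed. NIT1, a nitrilase that turns nitriles into acids, was at 517, 483, 467, 483 and 444 CPM in Bur-0 and 1673 to 1930 CPM in Col-0 (median 1806), lower by 3.75-fold with a tight error (log2 difference -1.91 ± 0.07, adjusted p = 1e-45). PEN2, an atypical myrosinase of indole glucosinolates used against fungi, was at 260, 268, 277, 294 and 272 CPM in Bur-0 and 125 to 165 CPM in Col-0 (median 138) (log2 difference 0.93 ± 0.08, adjusted p = 5.88e-18). Across the hydrolysis list, 5 of 19 members tested were higher in Bur-0 and 8 lower, with a median log2 difference of -0.17 beside -0.02 over all genes. Over all genes 16.3% were higher and 20.5% lower.

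Transcripts for the synthesis of aliphatic glucosinolates, the methionine-derived class, were mostly higher in Bur-0. Of 25 genes tested, 15 rose and 2 fell, beside 16.3% and 20.5% of all genes. The median log2 difference was 0.47, and 0.38 without Col-0 replicate f. IMS2 (also known as MAM3), a methylthioalkylmalate synthase of chain elongation, was at 60.1, 81.5, 76.3, 80.3 and 77.3 CPM in Bur-0 and 17.3 to 36.5 CPM in Col-0 (median 29.4), a log2 difference of 1.39 ± 0.11 (adjusted p = 1.43e-20). Its neighbour MAM1, which carries out the early elongation rounds, was at 535, 669, 550, 534 and 687 CPM in Bur-0 and 220 to 482 CPM in Col-0 (median 365) (log2 difference 0.68 ± 0.12, adjusted p = 2.11e-06). The groups did not overlap for either gene. The aminotransferases BCAT4 and BCAT3, at the entry and exit of elongation, were higher by 0.83 ± 0.13 and 0.58 ± 0.08 (adjusted p = 4.22e-08 and 1.13e-08), and the isopropylmalate isomerase subunit IIL1 by 0.60 ± 0.08 (adjusted p = 1.54e-10). The regulators MYB28 and MYB29 were higher by 0.49 ± 0.14 and 0.67 ± 0.14 (adjusted p = 0.0026 and 3.17e-05). Apart from IMS2 these higher members differed by less than 2-fold. The 2 members that fell were CYP79F2, which oxidises chain-elongated methionine (-0.36 ± 0.09, adjusted p = 0.001), and the dioxygenase AT2G25450 (-0.52 ± 0.17, adjusted p = 0.00977).

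The indole branch, made from tryptophan, showed no such common direction. Of its 14 genes 2 were higher and 4 lower, beside 16.3% and 20.5% of all genes, with a median of -0.04. The higher count was 1 without any of 6 libraries (Bur-0 d, e or f, Col-0 b, d or f). CYP79B3 and CYP79B2, which convert tryptophan to its oxime, were both lower. CYP79B3 was at 42.7, 29.5, 29.8, 25.4 and 40.9 CPM in Bur-0 and 80.6 to 197 CPM in Col-0 (median 119), a log2 difference of -1.86 ± 0.24 (adjusted p = 1.26e-10) with no overlap. The regulator MYB34 was lower, with a log2 difference of -0.92 ± 0.18 (adjusted p = 1.37e-05), whereas IGMT2, which methylates hydroxylated indole glucosinolates and has a near copy in AT1G21110, was higher by 1.33 ± 0.23 (adjusted p = 1.18e-06).

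Anthocyanin synthesis was the list with the lowest median. Of 26 anthocyanin and flavonoid genes, 21 were lower in Bur-0 and 2 higher, beside 20.5% and 16.3% of all genes. The median log2 difference was -1.85. DFR, the reductase that commits the pathway to anthocyanins, was at 16, 10, 21, 22.3 and 33.1 CPM in Bur-0 and 87.9 to 159 CPM in Col-0 (median 115), 6.21-fold lower (log2 difference -2.63 ± 0.22, adjusted p = 3.99e-19). LDOX, the next enzyme, was at 23.1, 11.7, 25.1, 24.5 and 35.2 CPM in Bur-0 and 75.5 to 116 CPM in Col-0 (median 105) (log2 difference -2.18 ± 0.20, adjusted p = 4e-17). UF3GT, which adds a sugar to the anthocyanin core, was at 3.05, 1.92, 6.33, 2.93 and 4.98 CPM in Bur-0 and 21.4 to 52 CPM in Col-0 (median 35.4), the deepest fall of the 3 enzymes at -3.26 ± 0.22 (adjusted p = 1.02e-25). The accessions did not overlap for any of them. An acyltransferase of the list, AT1G03940, was lower, with a log2 difference of -2.92 ± 0.22 (adjusted p = 2.83e-22) and shares sequence with AT1G03495.

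The regulators of the late anthocyanin steps moved with them. TT8, the bHLH partner in the activating complex, was at 0.933, 0.687, 0.959, 1.08 and 1.52 CPM in Bur-0 and 8.72 to 11.8 CPM in Col-0 (median 9.99) (log2 difference -3.39 ± 0.23, adjusted p = 2.79e-25). The MYB activator PAP1 was at 11.4, 14.2, 15.5, 19.7 and 14.9 CPM in Bur-0 and 33.6 to 83.3 CPM in Col-0 (median 59.1) (log2 difference -2.01 ± 0.26, adjusted p = 2.19e-10), and its relative MYB90 was lower, with a log2 difference of -2.93 ± 0.50 (adjusted p = 5.21e-07). Early steps shared with other flavonoids differed less: chalcone synthase TT4 was lower, with a log2 difference of -0.52 ± 0.15 (adjusted p = 0.0031), and chalcone isomerase TT5 had a log2 difference of -0.16 ± 0.20 that did not pass the test (adjusted p = 0.544). The members that rose were MYB111 and MYBL2. MYB111, an activator of flavonol synthesis, was at 10.3, 15, 10, 13.9 and 9.75 CPM in Bur-0 and 2.37 to 4.16 CPM in Col-0 (median 3.13) (1.87 ± 0.18, adjusted p = 5.02e-16). MYBL2, a repressor of anthocyanin genes, was at 81.8, 97, 92.7, 86.7 and 80.9 CPM in Bur-0 and 43.9 to 62 CPM in Col-0 (median 51.2) (0.74 ± 0.14, adjusted p = 8.26e-06). So the late anthocyanin enzymes and their activators were low in Bur-0 leaves while a repressor of the same genes was higher than in Col-0.

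**Figure D2:**
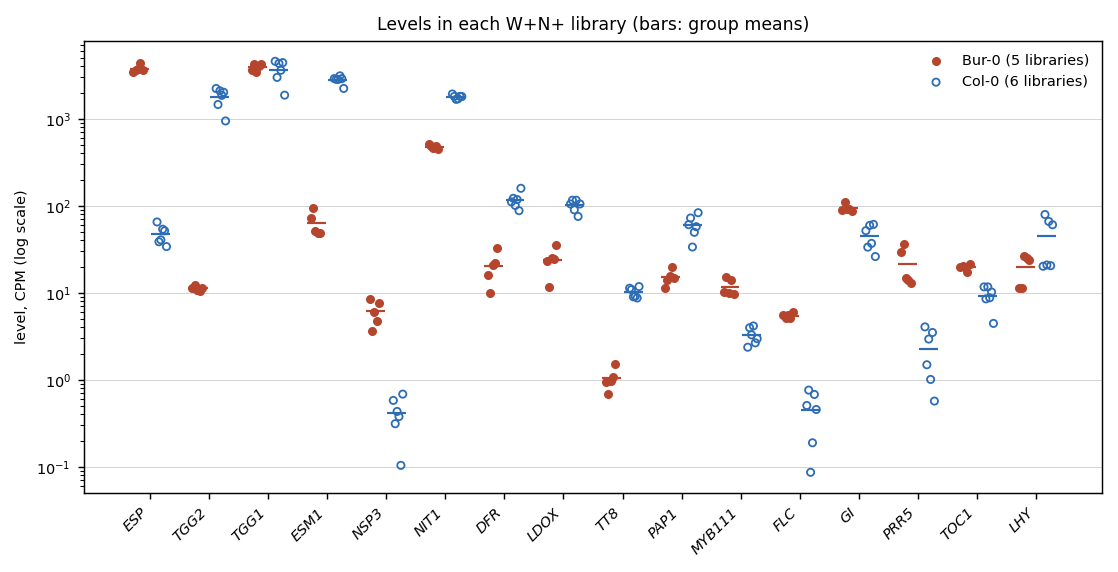
CPM (log axis) in each W+N+ library for 16 genes of glucosinolate hydrolysis, anthocyanin synthesis, flowering and the clock. Filled points are the 5 Bur-0 libraries, open points the 6 Col-0 libraries and bars the group means. The accessions separate for all genes shown except TGG1, where Bur-0 lay at 3446 to 4237 CPM inside the Col-0 range, and LHY, where the highest Bur-0 library (26.7 CPM) lay above the lowest Col-0 library (20.2 CPM).

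Among NLR immune receptors 13 of 30 tested were lower in Bur-0 and 8 higher, beside 20.5% and 16.3% of all genes. The median was -0.10. The higher count was 5 without Col-0 replicate b or f and 3 without Bur-0 replicate f. RPP5, of a TIR-type receptor cluster known for resistance to downy mildew, was at 0.424, 1.74, 0.32, 0.896 and 0.943 CPM in Bur-0 and 72.9 to 155 CPM in Col-0 (median 109). RPP4 of the same cluster was at 2.12, 4.97, 3.84, 4.42 and 5.92 CPM in Bur-0 and 63 to 158 CPM in Col-0 (median 103). The log2 differences were -6.83 ± 0.41 and -4.67 ± 0.35 (adjusted p = 5.36e-29 and 5.17e-22), and no Bur-0 library came near the Col-0 range. Both have near copies in the table, AT4G16920 for RPP5 and AT4G16890 for RPP4, and reads of a diverged Bur-0 copy may have been counted on neither. AT4G19510, a TIR-type receptor, was lower, with a log2 difference of -4.04 ± 0.22 (adjusted p = 4.99e-32), at 3.14, 2.21, 1.79, 2.03 and 1.68 CPM in Bur-0 and 29.9 to 47.1 CPM in Col-0 (median 33.7). SNC4, a receptor-like kinase named from a suppressor screen in immunity, was at 1.1, 0.94, 1.92, 1.25 and 1.31 CPM in Bur-0 and 22.2 to 119 CPM in Col-0 (median 76.1) (-5.94 ± 0.25, adjusted p = 9.07e-41), and the receptor-like protein gene RLP47 was lower, with a log2 difference of -4.39 ± 0.25 (adjusted p = 5.67e-30).

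Some genes had next to no reads in one accession. Under 0.1 CPM in every Bur-0 library and at 5 CPM or more in every Col-0 library were 37 genes, 25 of them without a single count in Bur-0. The reverse held for 9 genes, 5 of them without a count in Col-0. Col-0 is the accession of the gene models, which bears on this asymmetry, and its part was not tested. All 37 also stayed under 1 CPM in every Bur-0 library of the 3 poorer treatments, 17 of them under 0.1 CPM. These counts include Bur-0 W-N- replicate c. It held 0.306 to 0.535 CPM of 5 of the 37, which were under 0.1 CPM in every other Bur-0 library. Of the 9, 6 stayed under 1 CPM in every Col-0 library of those treatments and 3 under 0.1 CPM, with Col-0 W+N- replicate d included. As annotated, 30 of the 37 and 8 of the 9 were protein-coding genes. Counting every annotated gene, AT3G47675 and AT3G47680 were the only direct neighbours among the 37, and the 9 held none.

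Genes of immune receptors were present in both directions. CSA1, a TIR-type receptor, was at 0, 0, 0, 0 and 0.0524 CPM in Bur-0 and 14 to 23.9 CPM in Col-0 (median 19.7). DAR4, which lies near CSA1 with 1 other annotated gene between them and is known to act with it as a receptor pair, was at 0, 0, 0, 0 and 0 CPM in Bur-0 and 15.7 to 39.8 CPM in Col-0 (median 24.2). AT4G19500, the neighbour of the low receptor AT4G19510, was at 0.0424, 0, 0, 0 and 0 CPM in Bur-0 and 21.1 to 48.5 CPM in Col-0 (median 34). In the other direction, the NB-ARC gene AT4G09360 was at 8.65, 8.08, 9.33, 11.3 and 10.7 CPM in Bur-0 and had no count in Col-0. ADR1-L3, of the helper receptor family ADR1, was at 7.55, 7.03, 9.08, 6.99 and 8.28 CPM in Bur-0 and also had no count in Col-0.

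Other near-silent genes have other roles. The thionin gene AT1G66100, for a small antimicrobial peptide, had no count in Bur-0 and stood at 63.1 to 279 CPM in Col-0 (median 138). CRK21, a cysteine-rich receptor-like kinase, had none either and stood at 50.7 to 88.2 CPM in Col-0 (median 74.3). HSD2, a hydroxysteroid dehydrogenase, was at 0.0424, 0, 0.0639, 0 and 0 CPM in Bur-0 and 58.9 to 98.3 CPM in Col-0 (median 71.8). The uncharacterized genes AT1G76960 and AT5G49440 had no count in Bur-0 and stood at 70.4 to 147 CPM in Col-0 (median 77.9) and at 69.3 to 120 CPM in Col-0 (median 89.9), and AT3G61010, of a ferritin-like family, likewise at 21.3 to 39.7 CPM in Col-0 (median 29.4). AT2G11225, uncharacterized, was at 0, 0, 0, 0.0597 and 0 CPM in Bur-0 and 35.5 to 87.8 CPM in Col-0 (median 70.5). Near silent in Col-0 with levels in Bur-0 were the unclassified RNA AT2G01422 (26.1, 21.9, 22.1, 27.6 and 23.4 CPM), AT4G04402, annotated as a phosphorelay mediator (12.1, 15.2, 12.7, 11.3 and 12.6 CPM), AT3G24542, related to beta-galactosidases (12, 13.2, 13.4, 13.2 and 11.9 CPM), and AT1G63540, of a hydroxyproline-rich family (10.6, 11.3, 12.4, 12.1 and 11.8 CPM). AT4G18150 and AT5G17090 completed the 8 named in that direction, at 7.38, 10.1, 10.4, 10.2 and 11.6 CPM and 8.01, 8.03, 7.22, 8.3 and 9.28 CPM in Bur-0.

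The remaining accessions place these genes on a wider scale. Of the 37 genes near silent in Bur-0, 18 were also under 0.1 CPM in every W+N+ library of Cvi-0, 13 in those of Sha and 11 in those of Tsu-0. For 9 none of these 3 accessions was as low under W+N+, and for 3 all 3 were. AT5G49440, without a count in Bur-0, had a W+N+ median of 89.9 CPM in Col-0, 59.9 CPM in Sha and 0 CPM in Cvi-0 and Tsu-0. CSA1 and DAR4 had medians of 67.2 and 32 CPM in Tsu-0 and at most 0.0335 CPM in Cvi-0 and Sha, so the pair was low or high together in all 5 accessions. Of the 9 genes near silent in Col-0, 4 were as low in every W+N+ library of Cvi-0, 2 in those of Sha and 6 in those of Tsu-0. AT2G01422, AT4G09360 and ADR1-L3 had a W+N+ median of 0 CPM in each of the 4 accessions other than Bur-0.

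**Figure D3:**
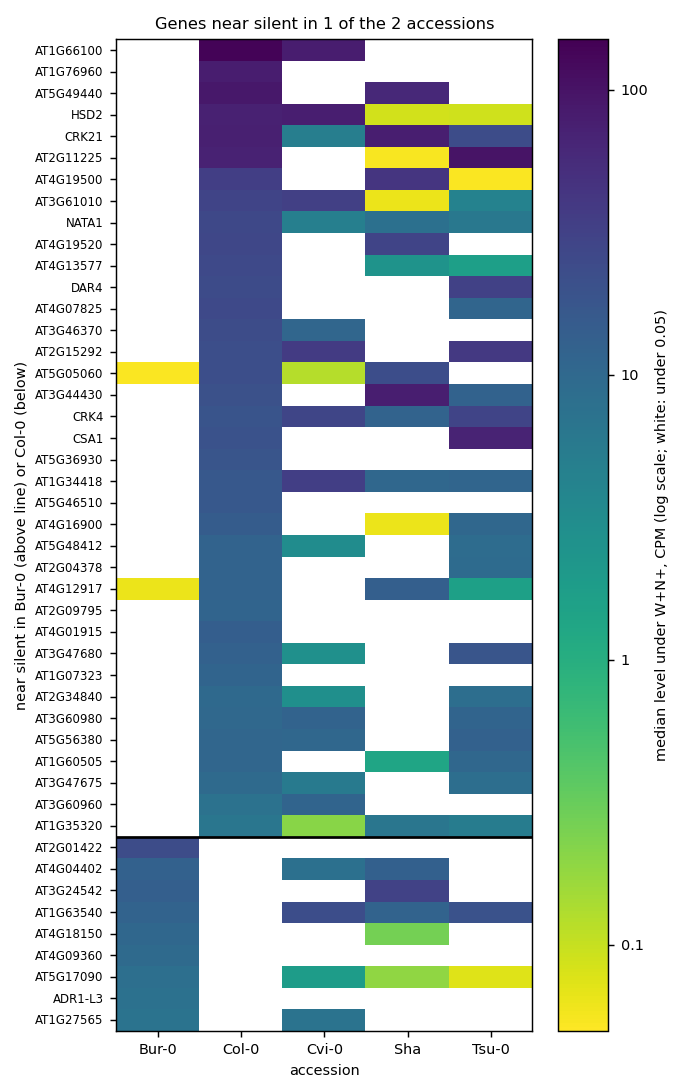
Median CPM under W+N+ in each of the 5 accessions (columns) for the 37 genes near silent in Bur-0 and the 9 near silent in Col-0 (rows), as shades on a log scale that ends at 0.05 CPM, below which cells are white. Rows differ in which of Cvi-0, Sha and Tsu-0 share the white cell; CSA1 and DAR4 are dark in Col-0 and Tsu-0.

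Of 23 jasmonate genes tested, 9 fell, beside 20.5% of all genes, and edgeR called 0 higher, with a median of -0.48. At an unadjusted p under 0.05, 1 member was higher, and limma voom and DESeq2 called 0 higher; without Col-0 replicate a edgeR called 1. Within P3ID33 alone 3 were higher and 6 lower, and within P3ID34 alone 0 and 8. Jasmonate is the wound hormone made from plastid lipids. LOX2, the lipoxygenase at its start, was at 675, 545, 738, 596 and 849 CPM in Bur-0 and 1057 to 3377 CPM in Col-0 (median 1637), 2.68-fold lower (log2 difference -1.42 ± 0.25, adjusted p = 1.79e-06). VSP2, a storage protein used as a marker of the jasmonate response, was at 9.88, 6.24, 11.6, 5.26 and 13.9 CPM in Bur-0 and 26.3 to 146 CPM in Col-0 (median 46.1) (-2.93 ± 0.56, adjusted p = 6.66e-06), also with no overlap. TAT3, a tyrosine aminotransferase of the same response, was lower, with a log2 difference of -2.71 ± 0.64 (adjusted p = 0.000296), and OPR3, an enzyme of jasmonate synthesis, was lower at 85, 47.9, 34, 49.6 and 72.8 CPM in Bur-0 and 69.9 to 260 CPM in Col-0 (median 109) (adjusted p = 0.00149). The defensin PDF1.2 was split by experiment code: Bur-0 replicates a and c had 76.9 and 25 CPM and replicates d, e and f 3.13, 1.91 and 1.05 CPM. Its log2 difference of -1.98 ± 0.50 (adjusted p = 0.00081) was -2.99 ± 0.51 within P3ID33 and -1.33 ± 0.68 within P3ID34, where it did not pass the test.

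Of 24 salicylic acid and general defence genes, 7 were lower and 2 higher, beside 20.5% and 16.3% of all genes. The median was -0.28. UGT74F2, which attaches glucose to salicylic acid, was at 0.424, 0.452, 0.895, 0.896 and 0.681 CPM in Bur-0 and 7.63 to 13 CPM in Col-0 (median 8.28) (-3.84 ± 0.26, adjusted p = 6.63e-25). ALD1, an aminotransferase that starts the synthesis of the mobile defence signal pipecolic acid, was at 0.297, 0.0542, 0.128, 0.0597 and 0 CPM in Bur-0 and 0.627 to 3.54 CPM in Col-0 (median 1.96), low counts with a log2 difference of -4.48 ± 0.65 (adjusted p = 8.81e-09). The lipase-like partners SAG101 and EDS1, which relay signals from TIR-type receptors, were the 2 higher members, by 0.73 ± 0.11 and 0.55 ± 0.16 (adjusted p = 6.92e-09 and 0.00445). The marker PR1 was at 161, 19.9, 71.7, 16.1 and 13.8 CPM in Bur-0 and 16.1 to 57.5 CPM in Col-0 (median 34.8) and did not pass the test (0.62 ± 0.54, adjusted p = 0.381).

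Flowering genes were called in both directions, 7 of 26 higher and 5 lower, beside 16.3% and 20.5% of all genes. The median was -0.03. FLC was at 5.55, 5.17, 5.5, 5.08 and 5.97 CPM in Bur-0 and 0.0865 to 0.762 CPM in Col-0 (median 0.482), higher by 3.39 ± 0.34 on the log2 scale (adjusted p = 3.85e-15), with every Bur-0 library above every Col-0 library. FRI, its activator in winter annuals, was at 3.99, 5.04, 3.39, 5.67 and 4.98 CPM in Bur-0 and 1.48 to 5.62 CPM in Col-0 (median 3.99) and did not pass the test (0.24 ± 0.22, adjusted p = 0.422). Its gene model says nothing of whether the product works. Among the FLC relatives, MAF1, AGL31 (MAF2) and MAF3 had log2 differences of -0.15 ± 0.13, -0.02 ± 0.14 and -0.07 ± 0.16 and did not pass (adjusted p = 0.373, 0.926 and 0.752). MAF4 was lower from low counts (-2.55 ± 0.41, adjusted p = 9.8e-08), and its log2 difference was -3.48 without Bur-0 replicate c. GI, which links the clock to flowering, was at 90.7, 112, 92.4, 91.5 and 86.3 CPM in Bur-0 and 26.1 to 61.2 CPM in Col-0 (median 44.4) (1.14 ± 0.16, adjusted p = 9.95e-10), and the floral repressor TEM1 was higher by 0.74 ± 0.17 (adjusted p = 0.000273). Of the flower markers SEP3 was at 1.14, 1.08, 0.703, 0.657 and 0.419 CPM in Bur-0 and 0 to 0.0196 CPM in Col-0 (median 0), called but under 2 CPM throughout.

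Most clock genes differed. Of 20 clock genes, 8 were higher and 7 lower in Bur-0, 15 of 20 in all beside 36.8% of all genes, with a median of 0.04. The higher members included genes that peak in the afternoon and evening. PRR5 was at 29.7, 36.7, 14.9, 14.2 and 12.8 CPM in Bur-0 and 0.57 to 4.06 CPM in Col-0 (median 2.21), 10-fold higher (log2 difference 3.32 ± 0.19, adjusted p = 7.69e-31). FKF1, the blue-light receptor of the photoperiod pathway, was at 6.7, 9.87, 5.37, 5.55 and 4.51 CPM in Bur-0 and 0 to 0.679 CPM in Col-0 (median 0.352) (4.22 ± 0.24, adjusted p = 1.44e-30). PRR3 and the evening gene ELF4 were higher by 3.30 ± 0.28 and 2.82 ± 0.32 (adjusted p = 3.54e-19 and 5.62e-13), and TOC1 was at 19.6, 20.6, 19.8, 17.4 and 21.3 CPM in Bur-0 and 4.45 to 11.7 CPM in Col-0 (median 9.5) (1.13 ± 0.13, adjusted p = 4.55e-12).

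Genes of the morning side were lower. RVE8 was at 5.89, 5.22, 6.65, 8.9 and 6.39 CPM in Bur-0 and 11.2 to 25.1 CPM in Col-0 (median 15.6) (log2 difference -1.38 ± 0.15, adjusted p = 7.46e-14). LHY was at 11.4, 11.5, 26.7, 25.1 and 23.9 CPM in Bur-0 and 20.2 to 79.4 CPM in Col-0 (median 40.7) (-1.18 ± 0.14, adjusted p = 9.95e-12), and CCA1 was lower, with a log2 difference of -0.93 ± 0.16 (adjusted p = 9.05e-07). PRR5 and LHY also differed between the experiment codes within Bur-0. PRR5 was at 29.7 and 36.7 CPM in the P3ID34 Bur-0 libraries and 12.8 to 14.9 CPM in the P3ID33 ones. LHY was at 11.4 and 11.5 CPM against 23.9 to 26.7 CPM. The effect of the code was not tested. Within codes the PRR5 difference was 3.59 ± 0.30 in P3ID33 and 3.21 ± 0.22 in P3ID34. No sampling time within the day is compared here, so whether the rhythm or its level differs was not tested.

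Nitrogen genes were called in both directions. In the nitrate list 6 of 26 were higher and 2 lower, beside 16.3% and 20.5% of all genes, with a median of 0.24. The lower count was 4 without Bur-0 replicate d. BT2, a nitrate-responsive BTB-domain protein, was higher by 2.11 ± 0.37 from low counts (adjusted p = 1.09e-06), NRT1.7, which unloads nitrate from old leaves, by 0.59 ± 0.12 (adjusted p = 1.8e-05) and G6PD3, a plastid enzyme supplying reductant, by 0.72 ± 0.16 (adjusted p = 0.000151). NRT1.1, the dual-affinity nitrate transporter and sensor, was at 76.8, 67.9, 62.6, 64.9 and 68.2 CPM in Bur-0 and 97.4 to 120 CPM in Col-0 (median 115), a log2 difference of -0.72 ± 0.10 (adjusted p = 4.23e-10) with no overlap. CLC-B, a chloride channel family member, was lower, with a log2 difference of -1.63 ± 0.18 (adjusted p = 3.59e-13).

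In ammonium assimilation and amino acid metabolism 6 of 21 were higher and 6 lower, median -0.06, beside 16.3% and 20.5% of all genes. GSR 1 (AT5G37600), a cytosolic glutamine synthetase that captures ammonium, was at 305, 297, 306, 281 and 260 CPM in Bur-0 and 82.1 to 136 CPM in Col-0 (median 103), 2.85-fold higher (1.51 ± 0.14, adjusted p = 1.59e-17). Its relative GLN1;4 was at 3.65, 3.56, 3.84, 4.72 and 5.24 CPM in Bur-0 and 8.2 to 14.1 CPM in Col-0 (median 9.78), a log2 difference of -1.27 ± 0.27 (adjusted p = 4.91e-05). The urea transporter DUR3 was higher by 1.44 ± 0.18 (adjusted p = 8.23e-11). The ammonium transporter AMT1;2 was lower, with a log2 difference of -2.09 ± 0.26 (adjusted p = 3.15e-11), at 5.51, 7.88, 15.5, 17.8 and 10.7 CPM in Bur-0 and 17 to 110 CPM in Col-0 (median 42.7), where the ranges touch. GDH3, a glutamate dehydrogenase, was lower, with a log2 difference of -2.18 ± 0.38 (adjusted p = 1.36e-06).

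In the phosphate starvation list 3 of 18 were higher and 5 lower, median -0.16, beside 16.3% and 20.5% of all genes. PHR1, the master regulator of the response, was at 34.4, 37.1, 39, 38.8 and 35.2 CPM in Bur-0 and 59.2 to 65.7 CPM in Col-0 (median 63.4) (-0.78 ± 0.10, adjusted p = 1.26e-10), while SPX1, a sensor protein that restrains PHR1, was higher by 1.04 ± 0.20 (adjusted p = 1.07e-05) and SQD2, which makes sulfolipid in place of phospholipid, by 0.60 ± 0.08 (adjusted p = 1.15e-09). In sulfate assimilation and sulfur deficiency 2 of 20 were higher and 7 lower, beside 16.3% and 20.5% of all genes. The median was -0.23. The higher count was 1 without Bur-0 a, Bur-0 f or Col-0 c. Without Col-0 f 3 were higher and 10 lower. APR1, the reductase that controls sulfate assimilation, was at 146, 170, 123, 141 and 139 CPM in Bur-0 and 194 to 242 CPM in Col-0 (median 223) (-0.61 ± 0.09, adjusted p = 2.04e-08). APR3 was lower with a log2 difference of -0.95 ± 0.18, the ATP sulfurylase APS4 with one of -0.98 ± 0.13 and LSU2, a marker of low sulfur, with one of -1.17 ± 0.25 (adjusted p = 1.01e-05, 1.18e-10 and 9.29e-05). APS1, the main isoform of ATP sulfurylase, did not pass (0.14 ± 0.08, adjusted p = 0.177).

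Genes of abscisic acid and dehydration were lower more often than higher, 14 against 5 of 34, beside 20.5% and 16.3% of all genes. The median was -0.30. LTI65 (also RD29B), a dehydration-induced protein, was at 0.551, 0.0362, 1.28, 0.717 and 0.262 CPM in Bur-0 and 1.56 to 21 CPM in Col-0 (median 9.69) (-4.48 ± 0.52, adjusted p = 2.39e-12). RD26, a NAC factor of the same response, was at 9.71, 6.07, 6.65, 9.74 and 9.54 CPM in Bur-0 and 14 to 29.1 CPM in Col-0 (median 22.4), HB-12, a homeobox factor, at 10.8, 9.74, 10.2, 10.8 and 8.38 CPM and 15 to 33 CPM in Col-0 (median 25.3). Neither overlapped, and the log2 differences were -1.44 ± 0.21 and -1.30 ± 0.21 (adjusted p = 1.07e-08 and 9.29e-08). The phosphatase HAI1, which damps the hormone's signal, and the caleosin RD20 were lower, with log2 differences of -1.74 ± 0.28 and -1.21 ± 0.19 (adjusted p = 9.6e-08 and 1.2e-07). The cold-response activators CBF1 and CBF2 were among the 5 higher members, by 2.48 ± 0.51 and 1.69 ± 0.36 from low counts (adjusted p = 3.31e-05 and 6.15e-05). Of 12 heat shock genes edgeR called 5 lower and 0 higher, beside the same 20.5% and 16.3% of all genes. The higher count was also 0 at an unadjusted p under 0.05 and by limma voom and DESeq2. The median was -0.61. HSP18.2, a small heat shock protein, was lower, with a log2 difference of -1.41 ± 0.20 and the disaggregase HSP101 with one of -0.77 ± 0.15 (adjusted p = 4.19e-09 and 1.35e-05).

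Aquaporins, the water channels of plasma membrane and vacuole, were lower as a family. Of 18 tested, 14 fell and 3 rose, beside 20.5% and 16.3% of all genes. The median was -0.44. TIP2;2 was at 43.1, 46.6, 46.8, 37.7 and 35.2 CPM in Bur-0 and 100 to 216 CPM in Col-0 (median 133), 3.36-fold lower (log2 difference -1.75 ± 0.16, adjusted p = 1.11e-16). The plasma membrane channels PIP2A, PIP2B and RD28 were lower, with log2 differences of -0.72 ± 0.09, -0.82 ± 0.10 and -1.02 ± 0.15 (adjusted p = 3.76e-11, 5.51e-11 and 1.4e-08). PIP2;8 ran against the family, at 24.7, 25.7, 36.2, 28.4 and 33.6 CPM in Bur-0 and 6.58 to 14.4 CPM in Col-0 (median 8.72) (1.62 ± 0.14, adjusted p = 4.32e-19). Without Col-0 replicate f 13 were lower and 3 higher, and within P3ID34 alone, 5 libraries, 5 were lower and 2 higher.

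Photosystem and antenna genes were mostly called lower, 19 of 33 with 1 higher, beside 20.5% and 16.3% of all genes. The median was -0.37, but the lower count rested on 1 library. Without Col-0 replicate f, 6 were lower and 1 higher, beside 17.4% and 14.5% of all genes, and the median was -0.23. LHCB2.1, an antenna protein of photosystem II, was at 1556, 1561, 2462, 1990 and 2101 CPM in Bur-0 and 4502 to 8930 CPM in Col-0 (median 5297), a log2 difference of -1.63 ± 0.11 (adjusted p = 1.85e-24), and of -1.50 ± 0.11 without that library. ELIP2 and ELIP1, antenna relatives induced by excess light, were lower, with log2 differences of -2.09 ± 0.28 and -1.61 ± 0.23 (adjusted p = 6.95e-10 and 2.51e-09). PSBQ-2, a subunit of the oxygen-evolving complex, was the higher member, at 2936, 2933, 2955, 3015 and 2855 CPM in Bur-0 and 2113 to 2362 CPM in Col-0 (median 2169) (0.39 ± 0.09, adjusted p = 7.65e-05). CAB1, with near copies in AT1G29910 and AT1G29920, had a log2 difference of -0.81 ± 0.21 (adjusted p = 0.000789). Without Col-0 replicate f it was -0.46 ± 0.19, which missed the threshold (adjusted p = 0.0564).

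In the Calvin cycle 5 of 18 were lower and 1 higher, beside 20.5% and 16.3% of all genes. The median was -0.17. The higher count was 2 without Bur-0 replicate a or Col-0 replicate f. The small subunits of Rubisco went apart. RBCS1B was at 406, 429, 440, 538 and 316 CPM in Bur-0 and 1305 to 4207 CPM in Col-0 (median 1978) (-2.35 ± 0.28, adjusted p = 4.32e-12). RBCS2B was at 6448, 6984, 9947, 8335 and 7964 CPM in Bur-0 and 2746 to 8945 CPM in Col-0 (median 4187) (0.76 ± 0.19, adjusted p = 0.000673), and its sequence is shared with AT5G38410, so reads may be split between them. RBCS1A did not pass the test (-0.29 ± 0.20, adjusted p = 0.274). Of 19 cytosolic ribosomal protein genes 9 were called lower, beside 20.5% of all genes. That count fell to 1 without Col-0 replicate f and to 3 without any of Bur-0 c, e and f and Col-0 b and d. Among 28 genes of cell division and leaf growth 4 were lower and 1 higher, under the background of 20.5% and 16.3%. These became 1 lower and 2 higher without Col-0 replicate d, and 2 lower without Col-0 b, Bur-0 c or Bur-0 e. The 1 higher gene, DA1, which limits organ size, was close to the threshold (0.27 ± 0.11, adjusted p = 0.0454) and lost its call without any of 7 libraries (Bur-0 a, c, e or f, Col-0 b, e or f). Without Bur-0 c another member was called higher in its place. Terpene and triterpene genes gave 4 lower of 9 tested, beside 20.5% of all genes, and 2 without any of Bur-0 a, Bur-0 d, Col-0 a and Col-0 b.

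**Figure D4:**
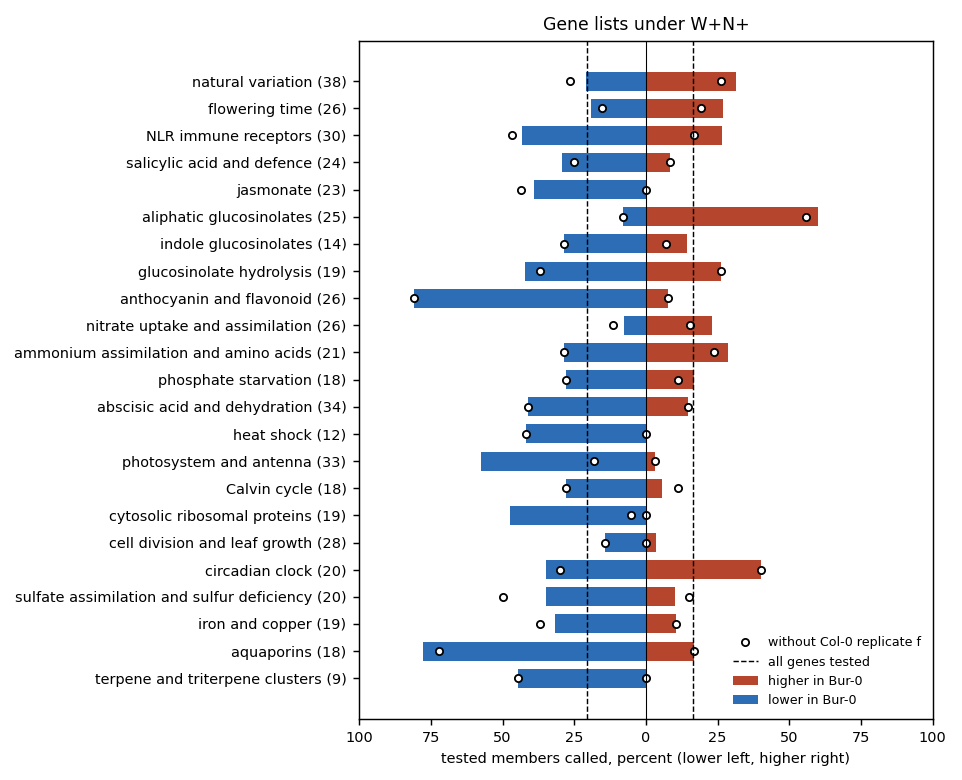
For each gene list with at least 5 members tested, tissue markers left out, the share of tested members called higher (right) and lower (left) in Bur-0 under W+N+, in percent, with the number tested beside the name. Dashed lines mark the shares over all genes, 16.3% higher and 20.5% lower, and open circles mark the shares without Col-0 replicate f. Anthocyanin and aquaporin genes reach furthest left of these lists and aliphatic glucosinolate genes furthest right, and the photosystem and ribosomal bars shrink most without that library.

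Loci known for natural variation between accessions, a list of 38 genes, had 12 higher and 8 lower members, and 18 that were not called. The median was 0.05, and over all genes 16.3% were higher and 20.5% lower. HISN6B, a copy of the histidine biosynthesis gene HPA1, was at 17.8, 18.9, 22.4, 17.7 and 20 CPM in Bur-0 and 0 to 0.173 CPM in Col-0 (median 0.0554), while HPA1 was at 13.8, 16.1, 16.9, 13.9 and 16.2 CPM and 15.8 to 24.8 CPM in Col-0 (median 17.5) and did not pass the test (-0.26 ± 0.18, adjusted p = 0.279). The pair shares sequence, so that Col-0 expressed 1 of the 2 copies and Bur-0 both, as far as reads could be assigned. DOG1, the seed dormancy gene, was at 0.0848, 0.163, 0, 0.0597 and 0.0524 CPM in these leaves of Bur-0 and 3.11 to 7.05 CPM in Col-0 (median 6.2) (-5.80 ± 0.34, adjusted p = 3.04e-27). QQS, a starch-related orphan gene whose level is known to vary between accessions, was lower, with a log2 difference of -4.67 ± 0.39 (adjusted p = 1.08e-19), at 0.17, 0.108, 0.0639, 0.119 and 0.0524 CPM in Bur-0 and 1.72 to 4.3 CPM in Col-0 (median 2.66).

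Of the tryptophan biosynthesis genes, PAI1 was at 32.3, 35.1, 24.9, 28.9 and 29.9 CPM in Bur-0 and 6.27 to 9.82 CPM in Col-0 (median 7.98) (1.91 ± 0.15, adjusted p = 3.36e-20), with near copies in AT1G07770 and PAI2. The receptor gene RPP8 was lower, with a log2 difference of -1.24 ± 0.21 (adjusted p = 6.37e-07) and the molybdate transporter MOT1 with one of -0.89 ± 0.17 (adjusted p = 7.48e-06). Proline synthesis gene P5CS1 was higher by 0.61 ± 0.20 (adjusted p = 0.00964), which missed the threshold without Col-0 replicate f (0.49 ± 0.20, adjusted p = 0.0566). MUM2 was higher by 0.45 ± 0.16 (adjusted p = 0.0162). It missed the threshold without Col-0 replicate f (0.35 ± 0.16, adjusted p = 0.0882) and without Col-0 replicate b (0.37). RPM1 (0.41 ± 0.16, adjusted p = 0.0373) and PHYC (-0.25 ± 0.09, adjusted p = 0.0234) were close to the threshold and lost the call when single libraries were left out: Bur-0 c, e or f or Col-0 b or f for RPM1, and Bur-0 a or Col-0 c or e for PHYC. Small calls were ETC2, a regulator of trichomes (0.74 ± 0.21, adjusted p = 0.00257), and PAI2 (0.63 ± 0.19, adjusted p = 0.00396). The members not called included ACD6 (-0.08 ± 0.20), RPP13 (-0.49 ± 0.21), HKT1 (0.82 ± 0.36), APR2 (-0.51 ± 0.23), HMA3 (-0.60 ± 0.59), PHYD (0.11 ± 0.16), CRY2 (0.26 ± 0.16), ER (-0.11 ± 0.16), HUA2 (0.46 ± 0.29), SVP (0.05 ± 0.12) and MAF5 (-1.16 ± 0.51), all as log2 differences. Of these, APR2 was called without Bur-0 c or Col-0 f (-0.63 and -0.69), RPP13 without Bur-0 f or Col-0 b or f (-0.63, -0.54 and -0.59), HKT1 without Bur-0 a or Col-0 b, d or f (0.99, 1.04, 0.94 and 1.03) and MAF5 without Col-0 a (-1.46).

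Genes outside the lists gave several of the largest and best measured differences. AT3G62460, annotated as an endonuclease or glycosyl hydrolase, was at 249, 254, 246, 234 and 235 CPM in Bur-0 and 2.46 to 4.45 CPM in Col-0 (median 2.93) (6.26 ± 0.19, adjusted p = 3.08e-51). AT5G28450, of the chlorophyll-binding family, was at 146, 141, 174, 174 and 130 CPM in Bur-0 and 0.145 to 5.02 CPM in Col-0 (median 0.771), and shares sequence with AT3G61470. PLA2A, a patatin-type lipase of defence, was at 253, 190, 203, 171 and 182 CPM in Bur-0 and 13.3 to 50.1 CPM in Col-0 (median 30.6), 7.96-fold higher (2.99 ± 0.23, adjusted p = 1.46e-21). AZI1, a lipid transfer protein of systemic immunity, was at 44, 49.3, 8.82, 7.53 and 11.9 CPM in Bur-0 and 0.114 to 3.37 CPM in Col-0 (median 2.43) (3.49 ± 0.30, adjusted p = 1.03e-18), higher in the P3ID34 libraries. G6PD4, the leucine-rich repeat kinase AT1G56120, the oxidoreductase AT4G20350 and the methyltransferase OMTF3 were higher by 4.32 ± 0.27, 3.27 ± 0.27, 3.08 ± 0.23 and 2.90 ± 0.18. AT2G03965, uncharacterized, was at 93.7, 88.4, 108, 116 and 101 CPM in Bur-0 and 0 to 0.441 CPM in Col-0 (median 0).

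On the low side, PLDGAMMA2, a phospholipase D, was at 0.212, 0.108, 0.0639, 0.0597 and 0.0524 CPM in Bur-0 and 26.2 to 53.5 CPM in Col-0 (median 42.2) (-8.51 ± 0.24, adjusted p = 4.85e-56). AT1G23950 had the lowest p of all genes at 5 CPM or more, at 0.466, 0.452, 0.384, 0.299 and 0.262 CPM in Bur-0 and 15.9 to 29.6 CPM in Col-0 (median 24.2) (-5.91 ± 0.16, adjusted p = 4.97e-57). AT1G23130, of a lipid transport family, was at 32.6, 29, 25.8, 26.6 and 20.2 CPM in Bur-0 and 435 to 594 CPM in Col-0 (median 502) (-4.23 ± 0.13, adjusted p = 7.36e-52). PCC1, a small protein under pathogen and circadian control, was at 10.7, 3.09, 18.2, 18.9 and 13.2 CPM in Bur-0 and 137 to 618 CPM in Col-0 (median 310), and FAMT, a methyltransferase of farnesoic acid, at 11.7, 3.49, 2.62, 4.42 and 9.59 CPM and 125 to 441 CPM in Col-0 (median 215). Their log2 differences were -4.96 ± 0.41 and -5.14 ± 0.49 (adjusted p = 5.55e-20 and 2.72e-16). SQP1, a squalene epoxidase, AT1G14250, a nucleoside phosphatase, and AT1G06640, a dioxygenase, were lower, with log2 differences of -4.56 ± 0.25, -5.64 ± 0.39 and -4.36 ± 0.22. AT4G16880 and the cystatin-like AT5G05060 were at or under 0.128 CPM in every Bur-0 library and at 43.9 to 57.7 CPM and 20.4 to 27.6 CPM in Col-0.

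Much of the contrast stood in the other treatments. The 4 comparisons share no libraries. Of the 7363 genes called under W+N+, 5119 were called in the same direction under W-N+ (69.5%), 4732 under W+N- (64.3%) and 4709 under W-N- (64%), and 7, 21 and 53 in the opposite direction. In those treatments 32.4%, 35.5% and 38.5% of all genes were called. Called in the same direction in all 4 were 3725 genes (18.6% of those tested, 50.6% of the 7363), 1733 higher and 1992 lower. Of the 2356 genes with at least a 2-fold difference, 1671 (70.9%) were among them. Without Col-0 W+N- replicate d, the W+N- comparison called 6593 genes (32.9%). ESP kept log2 differences of 6.33 ± 0.25 under W-N+, 5.61 ± 0.24 under W+N- and 6.48 ± 0.25 under W-N-, TGG2 of -7.12 ± 0.22 under W-N+, -7.41 ± 0.22 under W+N- and -7.07 ± 0.22 under W-N-, and FLC of 3.26 ± 0.34 under W-N+, 2.52 ± 0.30 under W+N- and 2.80 ± 0.32 under W-N-. PRR5 likewise kept 3.47 ± 0.19 under W-N+, 3.83 ± 0.18 under W+N- and 3.35 ± 0.19 under W-N-.

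Some lists looked alike in all treatments and others did not. Aliphatic glucosinolate genes were higher in 18, 15 and 18 of 25 cases under W-N+, W+N- and W-N-, where 15.4%, 18.0% and 19.6% of all genes were higher. In all 4 treatments 13 kept their call, counting here and below members of either direction. Aquaporins were lower in 12 of 18 in each of the 3, where 17.0%, 17.5% and 18.9% of all genes were lower. Of the aquaporins called in either direction, 13 kept their call. Of 15 clock genes called under W+N+, 12 kept their call, and of 21 NLR genes 17 did. Anthocyanin genes were lower in 15, 16 and 13 of 26, with medians of -1.25, -1.24 and -0.68. Of the anthocyanin genes called in either direction, 14 kept their call. Jasmonate genes did not stay low: 4, 6 and 7 of 23 were higher and 3, 3 and 1 lower, and the median was -0.01, 0.27 and 0.42. By edgeR 0 jasmonate genes kept a call in all 4 treatments, also 0 by limma voom and DESeq2, and 1 at an unadjusted p under 0.05. Salicylic acid genes gave 11 higher and 2 lower of 24 under W-N-. In the phosphate list 10 of 18 were higher and 1 lower under W-N+.

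A joint test of whether the difference between the accessions changed with treatment called 915 genes (4.57%), and 795 (3.97%) without Col-0 W+N- replicate d. Of the named lists, nitrate held 11 of 26, ammonium 9 of 21, phosphate 9 of 18, iron and copper 9 of 19, anthocyanin 7 of 26 and jasmonate 6 of 23 (5 without that library). Under W+N+ 6 of 19 iron and copper genes were lower and 2 higher, median -0.19, beside 20.5% and 16.3% of all genes. The copper enzymes gave the clearest case. CCS, the copper chaperone of superoxide dismutase, was at 18.1, 16.1, 15.9, 13.7 and 16.9 CPM in Bur-0 and 44.4 to 53 CPM in Col-0 (median 50.2) under W+N+, a log2 difference of -1.61 ± 0.12 (adjusted p = 1.32e-23). In the other treatments the difference was -1.33 ± 0.11 under W-N+, 0.06 ± 0.10 under W+N- and -0.53 ± 0.11 under W-N-, and the interaction had an adjusted p of 3.84e-16 (2.07e-15 without Col-0 W+N- replicate d).

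The superoxide dismutases that CCS loads with copper ran in parallel. CSD2, of the plastid, had a log2 difference of -1.58 ± 0.18 under W+N+ and of -1.07 ± 0.16 under W-N+, 0.04 ± 0.16 under W+N- and -0.12 ± 0.16 under W-N- (interaction adjusted p = 5.03e-08). CSD1, of the cytosol, had -1.06 ± 0.18 under W+N+ and -0.59 ± 0.17 under W-N+, 0.18 ± 0.17 under W+N- and 0.25 ± 0.17 under W-N- (interaction adjusted p = 6.31e-05). Means of CCS in Col-0 were 49.5 ± 3.03 CPM under W+N+ and 79.3 ± 9.89 CPM under W+N- (SD, n = 6), and in Bur-0 16.1 ± 1.59 CPM (n = 5) and 83 ± 10.8 CPM (n = 6). All 3 genes were thus low in Bur-0 when both supplies were ample or water alone was short, and closer to Col-0 when nitrate was short.

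GLN1;4 reversed. Its log2 difference was -1.27 ± 0.27 under W+N+ and -1.32 ± 0.28 under W-N+, 1.55 ± 0.22 under W+N- and 2.17 ± 0.24 under W-N-, with an interaction adjusted p of 1.1e-16. Its mean was 4.2 ± 0.741 CPM in Bur-0 and 10.3 ± 2.02 CPM in Col-0 under W+N+, and 50.2 ± 32.4 and 11.5 ± 2.89 CPM under W-N- (SD, n = 5 and 6, then 6 and 6). GSR 1 and DUR3 kept their direction. GSR 1 had 1.71 ± 0.13 under W-N+, 1.66 ± 0.13 under W+N- and 2.91 ± 0.14 under W-N- (interaction adjusted p = 9.34e-09). DUR3 had 1.76 ± 0.18 under W-N+, 2.12 ± 0.17 under W+N- and 2.90 ± 0.18 under W-N- (interaction adjusted p = 8.48e-05). The joint test does not say in which treatment the difference changed. NRT1.1 was lower under W+N+, with -0.92 ± 0.09 under W-N+, -0.07 ± 0.09 under W+N- and -0.20 ± 0.09 under W-N- elsewhere (interaction adjusted p = 2.09e-07). The excess of Bur-0 in GSR 1 and DUR3 was thus largest under W-N-, where the Bur-0 libraries also held more GLN1;4 than Col-0.

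PAP17, a purple acid phosphatase induced by low phosphate, showed no difference under W+N+ (32.4, 32.5, 17.6, 17.5 and 12.3 CPM in Bur-0, 16.3 to 33.6 CPM in Col-0 (median 21.2)) and 1.19 ± 0.16 under W-N+, -0.98 ± 0.18 under W+N- and -1.35 ± 0.17 under W-N- (interaction adjusted p = 5.63e-15). NIT4, a nitrilase that detoxifies cyanide products, was lower, with a log2 difference of -2.38 ± 0.20 under W+N+ and had -2.70 ± 0.20 under W-N+, -0.43 ± 0.17 under W+N- and -0.91 ± 0.18 under W-N- (interaction adjusted p = 3.51e-12). MSRB5, a methionine sulfoxide reductase, was lower, with a log2 difference of -2.32 ± 0.17 and had -1.20 ± 0.15 under W-N+, -3.22 ± 0.17 under W+N- and -2.29 ± 0.16 under W-N- (interaction adjusted p = 4.53e-10). NDB1, an alternative NAD(P)H dehydrogenase, had 0.16 ± 0.07 under W+N+, which did not pass with all libraries and passed without Col-0 f or Bur-0 d (0.23 and 0.20), and 0.06 ± 0.07 under W-N+, 0.81 ± 0.07 under W+N- and 0.60 ± 0.07 under W-N- (interaction adjusted p = 5.05e-09). The copper amine oxidase AT3G43670 had 0.05 ± 0.13 and 0.45 ± 0.12 under W-N+, -1.25 ± 0.12 under W+N- and -0.21 ± 0.12 under W-N- (interaction adjusted p = 3.51e-12). For these 5 genes the interaction stayed called without Col-0 W+N- replicate d, at adjusted p of 9.01e-15, 1.73e-11, 1.95e-09, 7.62e-09 and 4.45e-11. It did not for AT5G15360, uncharacterized, at 84.2, 74.9, 115, 105 and 114 CPM in Bur-0 and 0 to 0.189 CPM in Col-0 (median 0.0196), where the adjusted p went from 4.41e-10 to 0.879. AT3G24542, AT4G04402 and AT1G63540 lost their interaction call in the same way (from 9.74e-08, 1.06e-05 and 1.82e-06 to 1, 0.476 and 0.831).

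**Figure D5:**
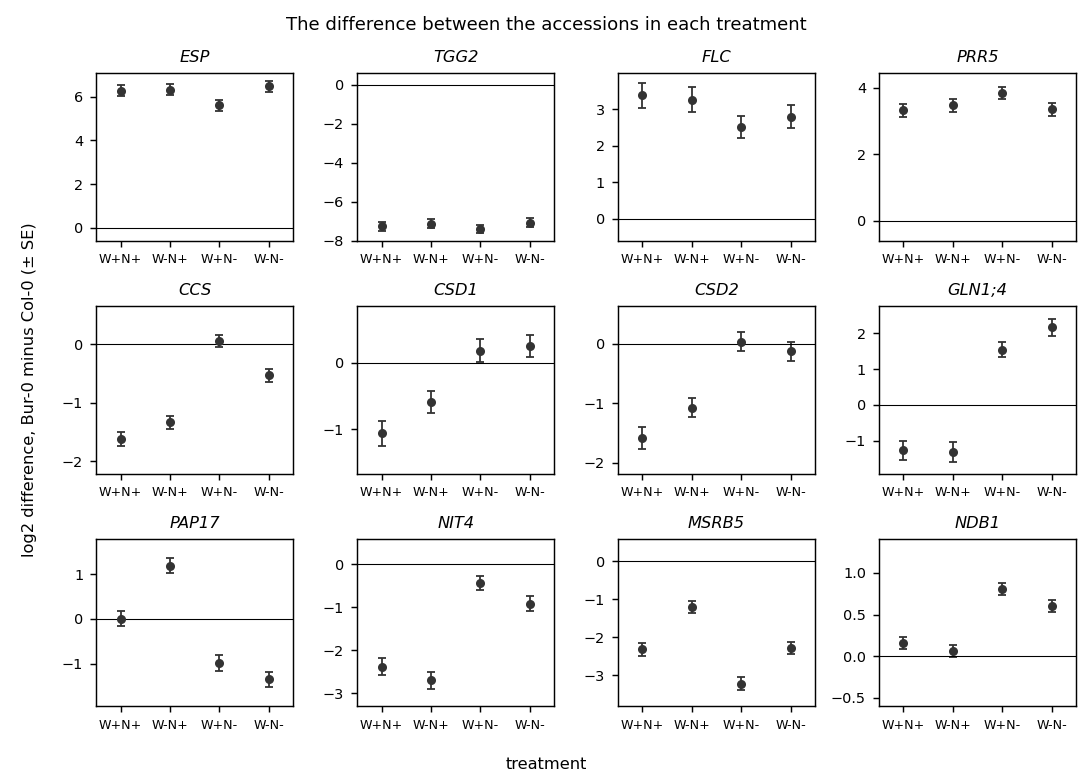
Log2 difference, Bur-0 minus Col-0, with its standard error in each of the 4 treatments for 12 genes. ESP, TGG2, FLC and PRR5 (top row) stayed on one side of 0 in all 4, whereas GLN1;4 changed from -1.27 under W+N+ to 2.17 under W-N-, and CCS, CSD1 and CSD2 rose towards 0 under W+N-.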

How the data were processed

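RNA of whole rosettes was extracted with the RNeasy Plant Mini kit and made into TruSeq Stranded mRNA libraries, per the labels' protocols. Reads were trimmed with Trimmomatic 0.36 and aligned with HISAT2, per the submitters' processing notes. How reads were counted, with which strand setting, and on which build is not stated. The deposited values are raw read counts per gene by the authors, not normalized, in 1 column for each of 119 libraries. Depth ran from 11429105 to 57889125 counts over the 11 libraries compared.

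From there, all 119 libraries were fitted together in R 4.3.3 with edgeR 4.0.16 (TMM scaling, filterByExpr by group, quasi-likelihood test, 1 term per accession and treatment plus the experiment code). P-values were adjusted over all 20025 genes, and genes with an adjusted p under 0.05 were called. Levels are CPM over TMM-scaled library sizes. On simulated counts of these 20025 genes the test recovered 30 of 50 genes changed 1.5-fold, 48 of 50 changed 2-fold and 49 of 50 changed 4-fold. There were 10 false calls. The changed genes were drawn from those with a mean of at least 1 CPM. The simulated counts held no deviation shared across a library, such as that of Col-0 replicate f. Recovery and false calls in the real data may therefore differ. Alternatives used limma 3.58.1 and DESeq2 1.42.0, among others. Gene names came from the RefSeq annotation of TAIR10.1, which matched 32548 of the 32833 gene IDs. Its coordinates served only to find overlapping genes, and near copies were transcripts with at least 95% identity over 200 bases.

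Members and gene lists were chosen with earlier results of these data known. Genes open to naming were the 10 highest and 10 lowest differences among well expressed genes. These had to be called, without overlap between the accessions and with the same direction within both codes. The rule also took the 8 highest near-silent genes each way, the 10 of lowest p, up to 5 of lowest p per list, the natural variation list and the 8 of lowest interaction p. TGG1, NSP1, NSP5, PEN2, CYP79F2, MYB28, MYB29, PAP1, MYB90, MYB111, MYBL2, TT4, TT5, TOC1, LHY, CCA1, EDS1, PR1, CBF1 and CBF2 fall outside that rule and were chosen after their values were seen. List medians were the same to 2 decimals when genes without a count in 1 group were set to a bound of 3 counts over that group.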

Additional observations from a re-analysis of the deposited data

Results flagged for a closer look

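Of 335 sets of library values, 1 per named gene and accession under W+N+, 27 held a library far from the others in its group (a gap to the nearest of the others that took most of the range). For normally distributed values chance alone gives about 1 in 20 such sets, and whether CPM values are so distributed was not tested. Where only 1 library of a set holds a count, the gap is the whole range by construction, so this rate does not apply. Col-0 replicate f was the distant library in 8 of the 27. It was lowest for ESM1 at 2233 CPM, BCAT4 at 93.8 CPM and MYB28 at 47.7 CPM. It was highest for CAB1 at 73512 CPM, NDB1 at 32.7 CPM, GLN1;4 at 14.1 CPM, LSU2 at 112 CPM and AT5G28450 at 5.02 CPM. The role of this library's other deviations in these values was not tested.

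Col-0 replicate a was highest for 3 genes, with TAT3 at 213 CPM, OPR3 at 260 CPM and AGL31 at 25.8 CPM, where the next highest libraries of TAT3 and OPR3 had 49.3 and 130 CPM. Bur-0 replicate a was highest for TAT3 at 25.1 CPM and for CSD1 at 114 CPM, and lowest for IMS2 at 60.1 CPM. TAT3 and OPR3 belong to the jasmonate list. Bur-0 replicate c was highest for GI at 112 CPM, G6PD4 at 22.4 CPM and MAF4 at 0.362 CPM. Bur-0 replicate e was highest for ESP at 4420 CPM, Bur-0 replicate d for NSP5 at 55.7 CPM and Col-0 replicate c for AT1G56120 at 23.5 CPM. The rest were traces in a group otherwise at or near 0: AT2G11225 at 0.0597 CPM in Bur-0 e, AT4G19500 at 0.0424 CPM in Bur-0 a, CSA1 at 0.0524 CPM in Bur-0 f, SEP3 and AT5G17090 both at 0.0196 CPM in Col-0 b, and AT1G63540 and AT2G03965 at 0.063 and 0.441 CPM in Col-0 d.

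For 48 named genes the difference between the accessions itself differed between treatments, by the joint edgeR interaction test. In copper and nitrogen metabolism these were CCS (adjusted p = 3.84e-16), CSD2 (5.03e-08), CSD1 (6.31e-05), GLN1;4 (1.1e-16), GSR 1 (9.34e-09), DUR3 (8.48e-05), NRT1.1 (2.09e-07), G6PD3 (0.0265) and GDH3 (0.0126). GDH3 had log2 differences of -2.18 ± 0.38 under W+N+ and -0.93 ± 0.38 under W-N+, -0.35 ± 0.28 under W+N- and -0.06 ± 0.32 under W-N-, and its test missed the threshold without Col-0 b or Bur-0 c (0.0543 and 0.066). Phosphate and sulfur genes were PAP17 (5.63e-15), SPX1 (8.53e-06), SQD2 (7.55e-06), APS4 (0.00165), LSU2 (0.0302) and the molybdate transporter MOT1 (0.00428). SPX1 had 1.04 ± 0.20 under W+N+ and 2.13 ± 0.20 under W-N+, 1.17 ± 0.20 under W+N- and 0.26 ± 0.20 under W-N-. LSU2 missed the threshold without any of 5 libraries (Col-0 d or f, Bur-0 d, e or f, with 0.0509 to 0.202).

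Among pigment, glucosinolate and defence genes the interaction was called for PAP1 (adjusted p = 0.00229), TT8 (0.00119), UF3GT (0.00346), AT1G03940 (0.022), ESM1 (0.00985), NIT1 (0.0114), NIT4 (3.51e-12), MYB28 (0.0347), IGMT2 (0.00228), OPR3 (0.0101), VSP2 (0.0365), PDF1.2 (0.00132), PR1 (0.00959), EDS1 (0.00183), PCC1 (0.000745) and PLA2A (0.00927). PAP1, the anthocyanin activator, had -2.01 ± 0.26 under W+N+ and -1.20 ± 0.24 under W-N+, -0.95 ± 0.23 under W+N- and -0.24 ± 0.23 under W-N-. EDS1 had 0.55 ± 0.16 under W+N+ and 0.69 ± 0.16 under W-N+, 1.27 ± 0.16 under W+N- and 1.56 ± 0.16 under W-N-. PDF1.2 had -1.98 ± 0.50 under W+N+ and 1.77 ± 0.53 under W-N+, -0.70 ± 0.47 under W+N- and 0.33 ± 0.51 under W-N-, and PR1 0.62 ± 0.54 and 2.79 ± 0.62 under W-N+, -1.29 ± 0.67 under W+N- and 2.25 ± 1.14 under W-N-. MYB28 missed the threshold without Col-0 f, Bur-0 c or Bur-0 e (0.0601 to 0.119), and VSP2 without Col-0 a or b or Bur-0 a, c or e (0.0556 to 0.104).

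Water and dehydration genes were TIP2;2 (adjusted p = 0.032), PIP2B (0.0389), PIP2;8 (0.0136), P5CS1 (0.0101) and RD26 (0.0425). TIP2;2 missed the threshold without Bur-0 c (0.0573), PIP2B without any of 6 libraries (Col-0 a, e or f, Bur-0 a, c or d, 0.0505 to 0.113), and RD26 without any of 6 W+N+ libraries (Col-0 a, b, d or f, Bur-0 c or d, 0.053 to 0.116) or without Col-0 W+N- d (0.0924). The others were TEM1 (0.0231), HISN6B (0.000413), MSRB5 (4.53e-10), NDB1 (5.05e-09), AT3G43670 (3.51e-12), AT1G23950 (6.6e-06), AT1G56120 (0.000308), AT2G11225 (0.0178), AT5G15360 (4.41e-10), AT3G24542 (9.74e-08), AT4G04402 (1.06e-05) and AT1G63540 (1.82e-06), of which the last 4 were not called without Col-0 W+N- replicate d.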

How the results depend on the processing

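Under W+N+ the 7363 calls became 7398 with RLE scaling, 7448 with no filter on low counts, 7387 without organelle genes, 6648 without the code, 7849 with the 2 accessions alone, 7334 with limma voom, 8311 with DESeq2, 8377 in P3ID33 alone, 5565 with the 11 libraries alone and 8082 with a length covariate chosen after seeing the data. Leaving out each library gave 6379 to 7662. In P3ID34 alone, which holds 2 Bur-0 libraries, 3728 genes were called under W+N+, 3750 under W-N+, 4619 under W+N- and 4662 under W-N-, against 7363, 6483, 7109 and 7719, and 2004 kept their direction in all 4, against 3725 (3574 to 3772 with single W+N+ libraries left out). The 915 interaction calls were 532 without the code, 1613 with DESeq2, 1850 in P3ID33 alone, 160 in P3ID34 alone, 1490 with the length covariate and 719 to 967 with single W+N+ libraries left out. Fewer samples enter the fits of 1 code or 11 libraries. For the other changes the cause was not tested. The 37 and 9 near-silent genes became 81 and 35 at a high limit of 1 CPM, 19 and 4 at 10 CPM, and 49 and 21 at a low limit of 0.5 CPM, as the limits select, and 37 to 38 and 9 to 11 with single libraries left out.

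Of the 149 named genes called, 126 kept their call under every alternative run and none reversed. For the genes named by the size of their difference, the same direction within both codes was a condition of choice. The share of higher among called genes stayed between 43.3% and 47.6%. Same-lettered deviations of the accessions correlated at 0.14, 0.25, 0.22, -0.09 and -0.13 for a, c, d, e and f. Pairs of different letters were not compared, and the e libraries carry different codes. Whether the letters pair libraries is thus not decided by these values. With the letter as a replicate block, 7389 genes were called under W+N+ and 935 by the interaction test. Genes with few counts, such as ALD1 or MAF4, are limited by depth.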
